A study of Oncorhynchus mykiss with 38 samples.

Results

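Among the 9024 trout cDNA clones with values, 64 had a higher signal in isolated spermatocytes and in isolated spermatids than in whole testis at any stage. They were taken by a rule on the mean log2 signals of the groups. The lower of the spermatocyte and spermatid means had to exceed the highest of the 6 whole-testis stage means by 0.6 or more, and had to be 8.17 or more. This difference is called the gap here, and a gap of 1 on the log2 scale is a doubling of the signal. The rule left the isolated spermatogonia free and used the means of all the other groups. The difference between the late cells and the stages is therefore given as a description, without a test.

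In the testis, spermatogonia multiply by mitosis, spermatocytes pass through meiosis, and the haploid spermatids they give rise to are reshaped into spermatozoa. In the rainbow trout this takes place once a year and nearly in step, so that the cell types inside the whole gonad change from stage to stage. Meiotic and post-meiotic cells express many genes that other cells do not use, such as those of the synaptonemal complex, which pairs the chromosomes, and those of the flagellum.

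RNA from 38 samples of male rainbow trout was labelled with radioactive phosphorus and hybridized to nylon arrays. The isolated cells were spermatogonia (6 arrays), spermatocytes (6 arrays) and spermatids (3 arrays), all separated by centrifugal elutriation. The whole testes were at stage I (5 arrays), with type A spermatogonia as their germ cells, at stages IIa and IIb (4 arrays each), with type B spermatogonia added, at stage IIIb (3 arrays), with spermatocytes, at stage V (4 arrays), with spermatids, and at stage VIII (3 arrays), the spawning testis that mostly holds spermatozoa. The fractions came from pooled testes, immature for the spermatogonia and maturing for both others, and are enriched rather than pure. They alone went through collagenase digestion and overnight shaking, so that the handling of the cells and their type cannot be told apart in a comparison with whole testis. No treatment, genotype or strain distinguished the groups.

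All values are log2 signals after a normalization that gave every array the same distribution, with a median of 8.17 that the authors took as background. A change therefore stands relative to the other clones on the array. Fewer cells of a type and less RNA per cell cannot be told apart in whole testis. Replicate arrays correlated with r between 0.79 and 0.85 for spermatids, between 0.85 and 0.96 for spermatocytes, between 0.92 and 0.97 for spermatogonia and between 0.88 and 0.98 within the stages. The labels do not say whether replicate whole testes were separate fish, or whether replicate fractions came from separate pools. The p-values measure only the spread between these samples.

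Taken over the 64 members, the median of the group means reached 9.13 for spermatogonia, 10.36 for spermatocytes and 10.28 for spermatids. In whole testis it was 8.40 at stage I, 8.53 at stage IIa, 8.48 at stage IIb, 8.61 at stage IIIb, 8.69 at stage V and 8.62 at stage VIII. The corresponding medians of all clones lay between 8.14 and 8.17 in the 9 groups. That both late fractions stood above every stage, stage V included, was set by the rule. The spermatogonia, which the rule left free, lay between the late fractions and the stages in these medians. The gap ranged from 0.60 to 2.66 with a median of 0.91, and 27 members had a gap of 1 or more. The value of every spermatocyte and spermatid array exceeded that of all 23 whole-testis arrays for 19 of the 64 members. This was so for 0.249% of the clones with a value on every array, and it follows in part from the rule.

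**Figure D1:**
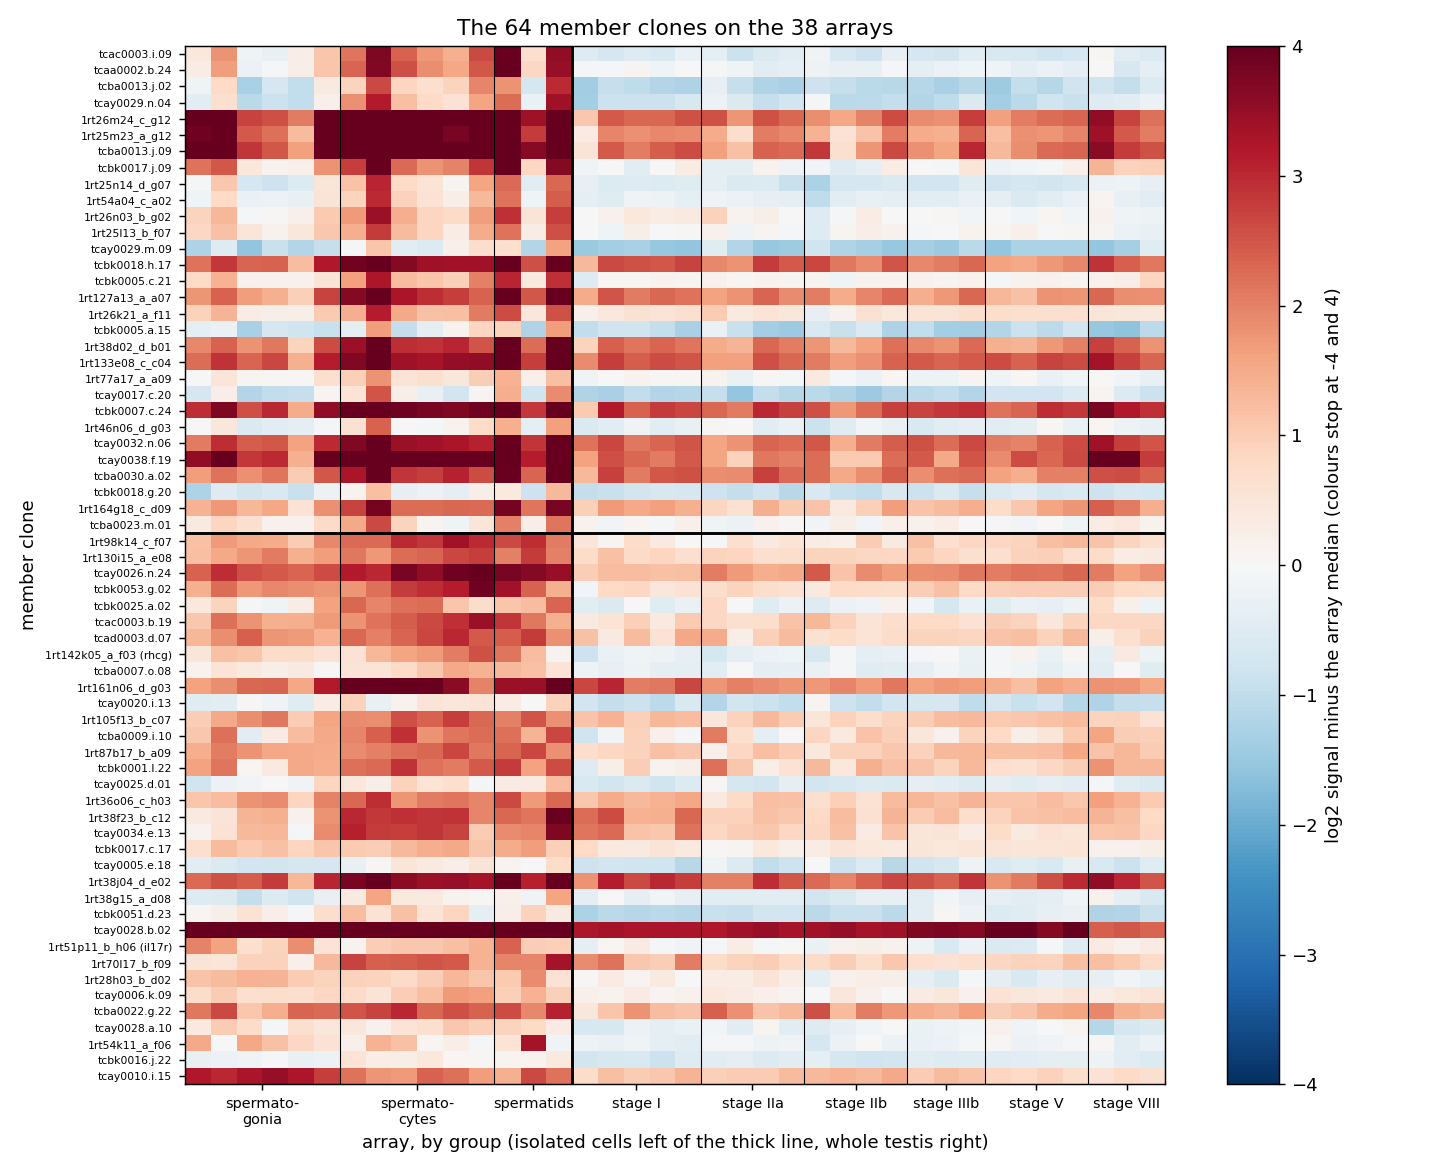
Log2 signal minus the array median (colour) of the 64 member clones (rows) on the 38 arrays (columns), with the isolated cells left of the thick vertical line and whole testis right of it. The 30 rows above the thick horizontal line varied together with tcac0003.i.09 among the isolated-cell arrays, with a pale column for spermatids replicate 2, and the 34 rows below it did not reach that limit.

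Only 2 members had a gene symbol in the array description, and 677 of all clones had one. The clone 1rt142k05_a_f03 represents rhcg, an Rh family glycoprotein known in fish as an ammonia transporter of gill and kidney. It gave 10.32, 9.41 and 8.30 in the 3 spermatid samples. Spermatocytes had a lowest value of 8.75, a median of 9.82 and a highest of 10.72, and spermatogonia 8.64, 8.90 and 9.33. The 23 whole-testis arrays had a lowest value of 7.35, a median of 7.93 and a highest of 8.54. All spermatocyte and spermatogonia arrays were above all whole-testis arrays for rhcg, but spermatids replicate 3 lay inside the range of whole testis. Its gap was 1.20, or 2.30-fold.

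The clone 1rt51p11_b_h06 represents il17r, a receptor for cytokines of the interleukin 17 family, which act in inflammation. Its signal was 10.52, 9.14 and 9.13 in spermatids. The lowest, median and highest values were 8.30, 9.24 and 9.56 in spermatocytes and 8.71, 9.41 and 10.16 in spermatogonia, against 7.56, 8.12 and 8.50 in whole testis. The mean of il17r in spermatogonia (9.42 ± 0.64, SD, n = 6) was above that in spermatocytes (9.14 ± 0.44, SD, n = 6), so that this clone was not confined to the late cells. Spermatocytes replicate 1 was the only array of isolated cells that fell inside the whole-testis range of il17r. Neither rhcg nor il17r passed any test between stages or between spermatids and spermatocytes in the fit over all arrays (limma, adjusted p between 0.0642 and 0.917). With the whole-testis arrays fitted alone, il17r varied among the stages (adjusted p = 0.00654).

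The other 62 members had no symbol in the annotation used here and are given by clone name. The largest gap belonged to tcac0003.i.09, at 12.11, 8.83 and 11.73 in the 3 spermatid samples. Its lowest, median and highest values were 9.59, 10.41 and 11.91 in spermatocytes, 7.88, 8.50 and 9.96 in spermatogonia and 7.32, 7.57 and 8.22 in whole testis. Every late array of tcac0003.i.09 exceeded every whole-testis array, and the gap of its means was 2.66. A nearly identical profile was given by tcaa0002.b.24, which had a gap of 2.46. Its signal was 12.21, 8.996 and 11.66 in spermatids, 9.72, 10.57 and 11.88 (lowest, median, highest) in spermatocytes, and 7.92, 8.43 and 9.83 in spermatogonia. In whole testis tcaa0002.b.24 ranged between 7.52 and 8.28 with a median of 7.96. After subtraction of the group means, both clones correlated with r = 0.97 over the 38 arrays. Whether such clones are copies of 1 transcript was not tested, since no clone sequences were used.

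The next in order of gap were tcba0013.j.02 with 2.10, tcay0029.n.04 with 1.93, 1rt26m24_c_g12 with 1.69, 1rt25m23_a_g12 with 1.66, and tcba0013.j.09 and tcbk0017.j.09 with 1.61 each. They were followed by 1rt98k14_c_f07 with 1.49, 1rt25n14_d_g07 with 1.46, 1rt130i15_a_e08 with 1.42 and tcay0026.n.24 with 1.40. All of these except 1rt98k14_c_f07, 1rt130i15_a_e08 and tcay0026.n.24 belong to a set of members that varied together, described further on. In whole testis the highest stage mean of the members ranged from 7.04 to 12.11. It was below the array median for 20 of the 64, against 34.6% of all clones.

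**Figure D2:**
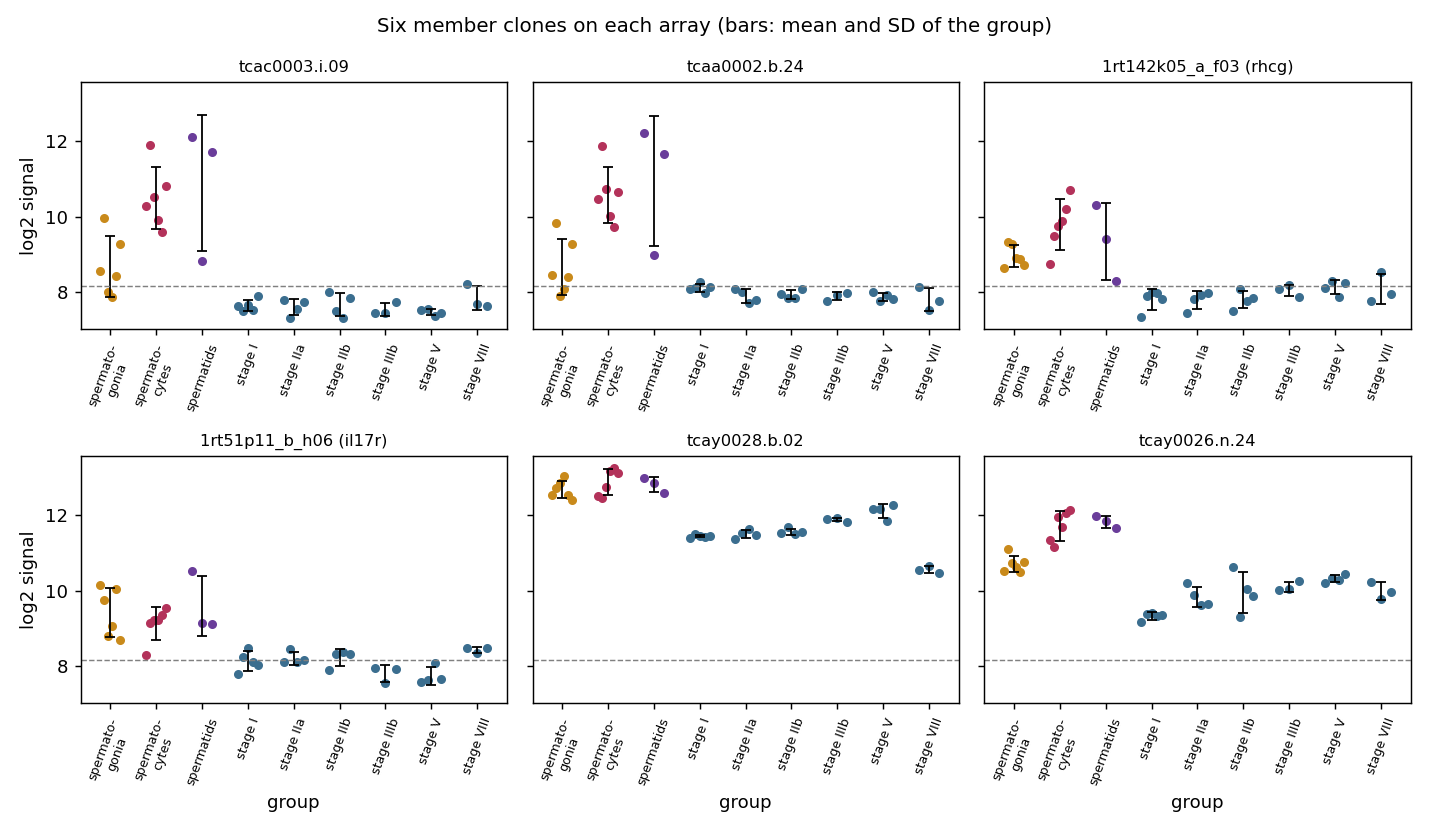
Log2 signal of 6 member clones on each array (points), with the mean and SD of each group (bars) and the array median (dashed line). The 2 clones of largest gap have a single low spermatid sample near 9, the means of rhcg and il17r stand above whole testis in all 3 fractions with 1 array each inside its range, tcay0028.b.02 has its lowest values at stage VIII, and tcay0026.n.24 is higher at stage V than at stage I.

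The limit on the gap fell in a dense range of values, unlike the limit on the level. Just inside the limit on the gap were tcay0010.i.15 at 0.60, tcbk0016.j.22 at 0.60 and 1rt54k11_a_f06 at 0.61. Just outside were 1rt74h11_b_d06 (LOC100379111) at 0.598, tcay0038.f.15 at 0.593 and 1rt63m02_c_g01 at 0.582. The lowest late means among members were 8.27 for tcbk0018.g.20 and 8.32 for both tcay0029.m.09 and tcbk0005.a.15. A single clone met the limit on the gap and missed the limit on the level, tcba0030.p.19 with a late mean of 7.75. The spermatid mean of 1rt54k11_a_f06 rested on replicate 2. Its signal was 8.72, 11.48 and 8.03 in spermatids, 8.10, 8.39 and 9.57 (lowest, median, highest) in spermatocytes, and between 7.51 and 8.22 in whole testis.

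The rule did not use the isolated spermatogonia, but it set the late means high and the stage means low with which they are compared here. Spermatogonia between both, as described next, follow in part from the choice of members. In 60 of the 64 members the spermatogonia mean was below both late means, with a median difference of 1.07 for spermatocytes minus spermatogonia and 1.11 for spermatids minus spermatogonia. It exceeded the highest stage mean in 42 of the 64, against 19.8% of all clones, and did so by 0.6 or more in 11 of them, against 0.731%. In the other 22 members it was at or below the highest stage mean. Since the spermatogonia varied so among members, and since spermatids have completed meiosis, the members are described here by the rule alone.

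Tested against the array median, the spermatogonia mean differed for 54 of the 64 members, against 80.7% of all clones (limma, Benjamini-Hochberg adjusted p under 0.05). It was higher for 47 members and lower for 7. Of all clones, 40.8% passed as higher and 39.9% as lower. Among the 4078 clones that met the rule's limit on the late level, members included, 80.2% passed as higher. The share of members (73.4%) was not above this. That limit is a floor only, so that these clones were not matched to the members in level. The median over members was 0.96 above the array median, and that over all clones was -0.01.

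Spermatogonia gave their highest mean for tcay0028.b.02, with 12.69 ± 0.23 (SD, n = 6) in spermatogonia, 12.88 ± 0.34 (SD, n = 6) in spermatocytes and 12.82 ± 0.21 (SD, n = 3) in spermatids. The lowest mean was that of tcay0029.m.09, with 7.11 ± 0.37 (SD, n = 6), and for this clone spermatogonia fell below the array median by 1.05 with an SE of 0.20 (limma adjusted p = 1.66e-05). The 4 members in which spermatogonia reached or passed the lower late mean, named here after their values were seen, were tcay0010.i.15, 1rt28h03_b_d02, il17r and 1rt54k11_a_f06. The most marked was tcay0010.i.15. Its signal was 9.59, 10.82 and 10.34 in spermatids, 9.84, 10.12 and 10.52 (lowest, median, highest) in spermatocytes, and 10.93, 11.38 and 11.66 in spermatogonia. Whole testis gave 8.75 to 9.69 for tcay0010.i.15, below every array of spermatogonia. For 9 of the 64 members, spermatogonia lay above whole testis without overlap, as they did for 0.971% of the 8855 clones that could be compared so.

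**Figure D3:**
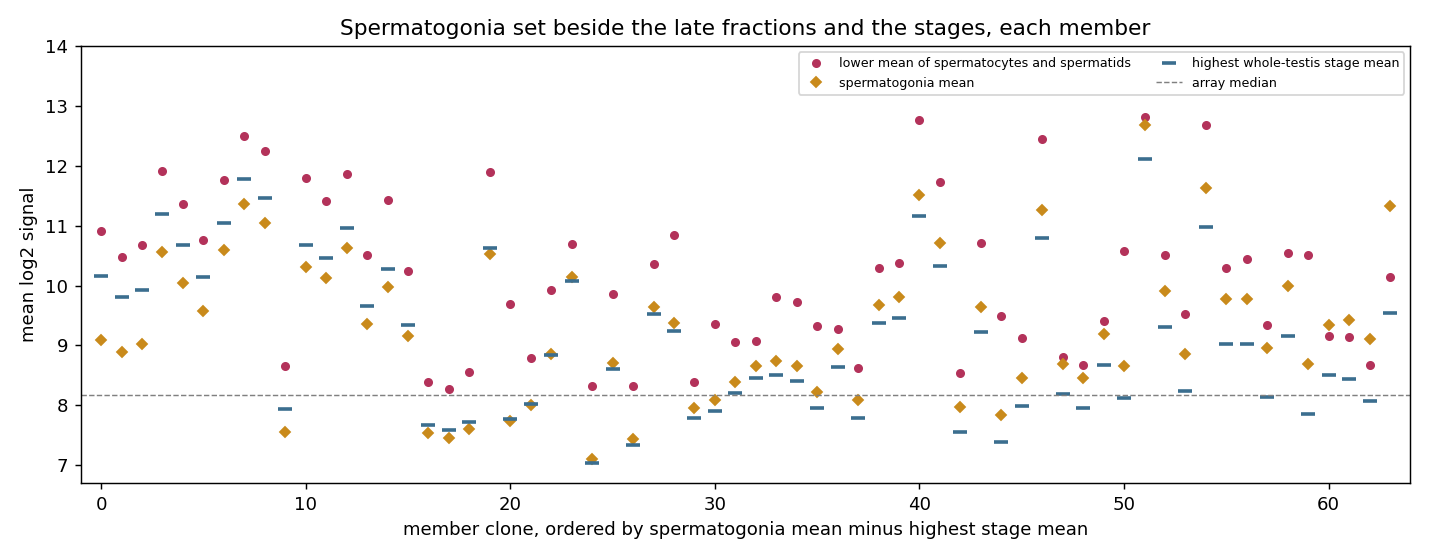
Mean log2 signal of each of the 64 members (horizontal axis) in the late fractions (lower mean of spermatocytes and spermatids, circles), in spermatogonia (diamonds) and at the stage of whole testis with the highest mean (bars). Diamonds lie below the bar for the 22 members on the left and above it for the 42 on the right, and they pass the circle in 4.

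Spermatids and spermatocytes were next compared with each other. The rule used the lower of both means, which favours clones with means close to each other, so that the low count follows in part from the choice of members. None of the 64 members passed (limma, adjusted p under 0.05; 0 of them had even an unadjusted p under 0.05), and 0.0665% of all clones did, each of them higher in spermatids. The median difference of spermatids minus spermatocytes was 0.10 over members and -0.01 over all clones, and 45 of the 64 members were on the side of spermatids. For single members the difference ranged from -0.46 to 0.74, and missing the threshold does not show that both cell types had the same level. The precision was limited by the spread between spermatid samples. The median SD of members was 0.96 in spermatids, 0.54 in spermatocytes and 0.48 in spermatogonia, whereas over all clones it was 0.34, 0.29 and 0.22. In whole testis the members spread like other clones, with a median SD between 0.15 and 0.31 for members and between 0.15 and 0.23 for all clones.

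A large part of this spread was shared. With each group's mean subtracted, 29 of the other 63 members correlated with tcac0003.i.09 at r of 0.7 or more over the 15 isolated-cell arrays, and so did 2.40% of all clones. This is a description over 15 arrays, and the limit of 0.7 was chosen after the values were seen. Over the 23 whole-testis arrays 1 of the 63 reached this value, against 0.136% of all clones. Because the resulting set of 30 members was chosen by its correlation on these arrays, its likeness there, including in spermatids replicate 2, is fixed in large part by that choice. The median of r over pairs within the set was 0.84 among the isolated-cell arrays and 0.19 among the whole-testis arrays. Within the other 34 members it was 0.01 and 0.03, and over all clones it was near 0 in both.

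The 30 members had a median signal of 11.60, 8.75 and 11.60 in the 3 spermatid samples. In spermatocytes it was 10.15, 11.75, 10.04, 9.62, 9.48 and 10.34 in replicates 1 to 6, and in spermatogonia 9.03, 9.69, 8.53, 8.32, 8.39 and 9.26. At the stages the median of the group means was between 8.19 and 8.53. Spermatids replicate 2 was therefore the lowest of the spermatid samples for these clones, close to whole testis, and it was so in 30 of the 30. Replicate 2 was the highest spermatocyte sample. The other 34 members had medians of 10.18, 10.07 and 9.98 in the spermatid samples, with single members going either way (median SD 0.55), and medians between 9.98 and 10.37 in the spermatocyte samples and between 9.11 and 9.63 in the spermatogonia. Spermatids replicate 2 was below both other spermatid samples in 9 of these 34, and in 32.7% of all clones. Over all 64 members it lay more than 1 log2 unit below both others in 30, and over all clones in 2.72%. These 30 are not the same set as before. They lack 1rt77a17_a_a09 (-0.98 against the lower of both others) and include 1rt38j04_d_e02 (-1.43), which is among the other 34.

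**Figure D4:**
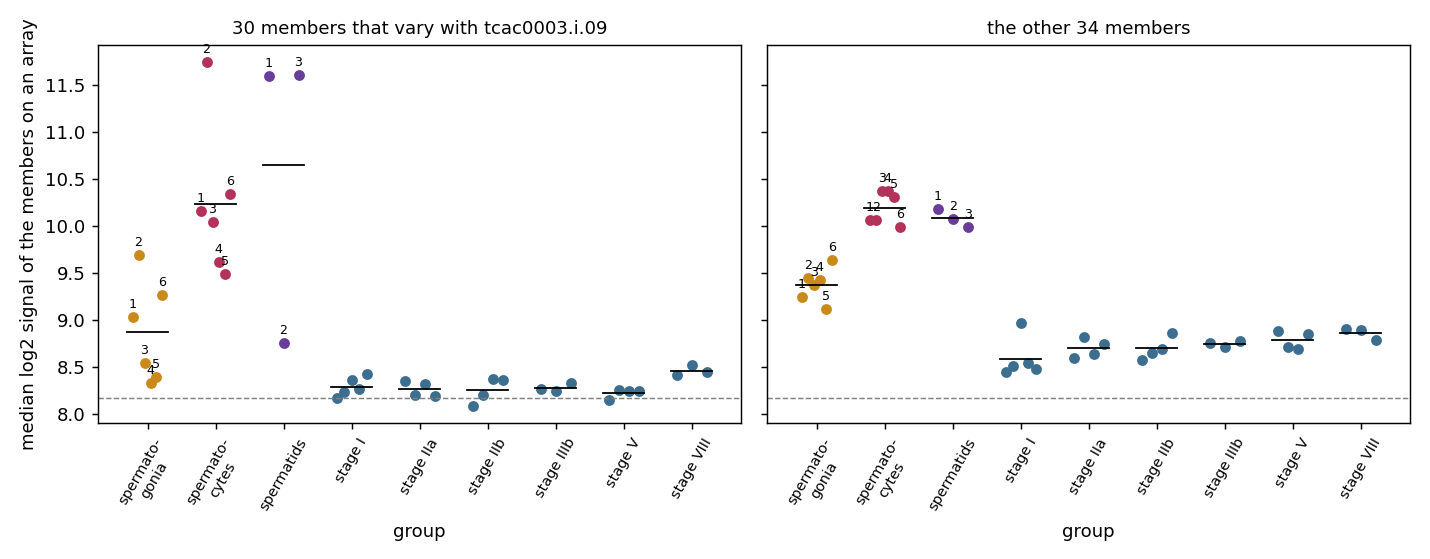
Median log2 signal on each array of the 30 members that varied with tcac0003.i.09 (left panel) and of the other 34 members (right panel), by group, with the mean of the arrays as a line and the array median dashed; numbers give the replicate of isolated cells. In the left panel spermatids replicate 2 is at 8.75 with both other spermatid samples at 11.60, and in the right panel the 3 samples lie between 9.98 and 10.18.

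Markers of cell types moved along with this sample. The spermatid markers cetn4, a centrin, and spata4, a spermatogenesis gene, averaged 9.89, 8.78 and 10.30 in spermatid samples 1 to 3. The synaptonemal complex gene sycp3 had 11.51, 10.18 and 11.72. For the germ line markers ddx4 and piwil2, which are strong in early germ cells, the mean was 9.77, 10.45 and 9.22, and for the 3 clones of matrix and peritubular markers it was 8.62, 10.19 and 8.64. Sertoli cell markers (3 clones) averaged 7.68, 8.60 and 8.25, Leydig cell markers (3 clones) 8.23, 8.26 and 8.57, and red blood cell markers (3 clones) 8.05, 7.32 and 7.42. In the other groups the spermatid markers ranged from 9.28 to 10.14 in spermatocytes, from 7.94 to 8.50 in spermatogonia and from 7.55 to 9.93 in whole testis, and the matrix markers from 8.66 to 9.88, from 9.61 to 10.60 and from 11.03 to 12.64. Spermatids replicate 2 was thus lowest for spermatid, meiotic and red blood cell markers, highest for germ line, matrix and Sertoli markers, and between the others for Leydig cell markers. The 30 members were highest in spermatocytes replicate 2. Its mean of the spermatid markers was the lowest among the spermatocyte samples, narrowly (9.28, with 9.30 to 10.14 in the others). Among these samples it was also lowest for germ line markers (9.62) and highest for matrix (9.88) and Leydig cell markers (9.09). For sycp3, Sertoli and red blood cell markers it lay between the others. The part of these cell types in the members' spread was not tested.

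Without spermatids replicate 2, 16 of the 63 members correlated with tcac0003.i.09 at r of 0.7 or more over the remaining 14 isolated-cell arrays, against 0.759% of all clones, and the median of r within the 30 was 0.74. Over the spermatogonia and spermatocyte arrays alone it was 0.76, with 0.09 for the other 34 members. There, 18 of the other 29 members of the set reached r of 0.7 or more with tcac0003.i.09. All these arrays are among those on which the 30 were chosen, so that these values still follow in part from that choice. When this sample was left out of the comparison of spermatids with spermatocytes, 4 members passed as higher in spermatids and 0 as lower. Of all clones, 3.20% passed in either direction. The 4 members were tcaa0002.b.24 (1.35, SE 0.35, adjusted p = 0.0257), tcbk0005.c.21 (1.28, SE 0.34, adjusted p = 0.0264), tcac0003.i.09 (1.41, SE 0.38, adjusted p = 0.0316) and 1rt164g18_c_d09 (1.22, SE 0.34, adjusted p = 0.0395), by the limma fit, and all 4 are among the 30. The 30 were chosen by a correlation over arrays that include this sample, where they are low. Their higher spermatid means without it follow in large part from that choice.

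The 30 members were part of a wider set. In all, 213 clones reached r of 0.7 or more with tcac0003.i.09 among the isolated-cell arrays, itself included, and 183 of them were not members. Only 10 of the 183 had a symbol. Their gaps ranged from -2.14 (LOC100136590) to 0.35 (rtgdnf). The highest correlation among them was that of you2 (r = 0.95), with 9.44, 7.66 and 9.45 in the 3 spermatid samples and a gap of -0.15. Of the others, 2 are given here after their values were seen. In the same samples rtgdnf had 9.01, 7.56 and 9.04. For pfn1, profilin, an actin-binding protein, the values were 8.61, 7.95 and 8.59, with a gap of -0.51. The 183 were picked by a correlation over arrays that include spermatids replicate 2, so that a low value there is fixed in large part by that choice. The lower late mean of pfn1 was below its highest stage mean. That of rtgdnf was above it, by less than the rule asks. The 30 had larger gaps than the other 34 members (medians of 1.21 and 0.79) and reached their highest stage mean at stage VIII in 22 cases, as against 7 of the 34. In spermatogonia they exceeded the highest stage mean by 0.6 or more in 3 cases, and the other members in 8.

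Smaller sets of members shared finer detail. These sets were picked for their likeness after the values were seen, so that their correlations are fixed in large part by that choice. The clones 1rt26m24_c_g12, 1rt25m23_a_g12 and tcba0013.j.09, within the 30, correlated with each other at r between 0.91 and 0.98 over the 38 arrays after subtraction of the group means. Their spermatocyte means were 12.87, 12.71 and 12.85. Among the other 34, the clones 1rt161n06_d_g03, tcay0034.e.13, 1rt38f23_b_c12 and 1rt70l17_b_f09 correlated at r between 0.86 and 0.94. For tcay0034.e.13 the spermatid samples had 10.06, 10.11 and 11.89 and spermatocytes replicate 6 had 9.20, whereas the other spermatocyte samples were between 10.87 and 11.27. The same clone had 10.32, 10.44, 9.29, 9.25 and 10.34 at stage I, with replicates 1, 2 and 5 high and replicates 3 and 4 low.

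The closest profiles over all 38 arrays were mostly those of other members. For 54 of the 64 the clone with the highest correlation was a member, with r between 0.79 and 0.99 over the 64, which follows in part from the choice of members on these values. The nearest clone to rhcg was the member tcbk0053.g.02 (r = 0.97). The nearest one outside the members with a symbol was grp94 (r = 0.83), which encodes a chaperone of the endoplasmic reticulum. For tcay0028.b.02 it was hsp90bb, a cytosolic chaperone (r = 0.85). For il17r it was LOC100135840 (r = 0.75), and for tcac0003.i.09 it was rtgdnf (r = 0.79). These named neighbours were picked by their correlation alone, and those of the other members are not given here.

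The source plate, read from the clone name, was shared with another member for 26 of the 64. These lay on 11 of the 331 source plates. Plate 1rt38 held 4 members among its 31 clones on the array, plate 1rt25 had 3 of 30 and plate 1rt26 had 3 of 19. All members of plates 1rt25 and 1rt26 belonged to the set of 30. Clones of the 1rt libraries made up 27 of the 64 members and 38.7% of all clones.

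In whole testis the cell types change from stage to stage, and the members were tested for change among the stages. The rule set an upper limit on the highest stage mean, which disfavours clones that are high at any 1 stage, so that the shares of members below follow in part from it. The signal varied among the 6 stages for 11 of the 64 (limma F-test, adjusted p under 0.05), against 46.9% of all clones. In stage V against stage I, 9 members passed, against 30.9% of all clones. Of these members 4 were higher and 5 lower, whereas 15.2% of all clones were higher and 15.7% lower. In stage IIIb against stage IIb, 1 member passed, against 7.04% of all clones. It was higher and 0 were lower, whereas 3.92% of all clones were higher and 3.11% lower. In stage VIII against stage V, 4 members passed, against 37.4% of all clones. Of these members 1 was higher and 3 were lower, whereas 18.1% of all clones were higher and 19.3% lower. The shares of members, 17.2%, 14.1%, 1.56% and 6.25%, were below those of all clones, and nothing is read from this difference, which was not tested. The fit pools the spread of all groups, and the members' spread among isolated cells was wide. With the 23 whole-testis arrays fitted alone, a choice made after this spread was seen, 23 of the 64 varied among stages, against 54.6% of all clones. In that fit 16 differed between stage V and stage I and 15 between stage VIII and stage V, against 36.5% and 43.2% of all clones. Of the 15, 10 were higher and 5 lower at stage VIII.

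Few clones represent the meiosis and flagellum lists, and their difference from the members was not tested. The single clone of the synaptonemal complex list, sycp3, was higher at stage V than at stage I by 2.16 (SE 0.31, adjusted p = 1.53e-06), and all 4 clones (3 genes) of the list of the axoneme, centriole and spermiogenesis passed as higher, among them cetn4 (1.89, SE 0.23, adjusted p = 8.61e-08) and spata4 (1.39, SE 0.27, adjusted p = 0.000116). The spermatid (11.13) and spermatocyte (10.46) means of sycp3 were below its stage V mean (11.33). In spermatids this rested on replicate 2 (10.18), since replicates 1 (11.51) and 3 (11.72) were above that mean. Of the 50 clones on any list 0 were members, where members are 0.709% of all clones. The lists were matched by symbol, and only 2 of the 64 members had one, against 7.50% of all clones. This 0 therefore says nothing about which genes the members represent. Among the 6 clones of the chaperone and heat shock list, 2 passed as higher at stage V than at stage I, and the list's mean over an array was 10.001 to 10.56 in spermatids, 10.21 to 10.70 in spermatocytes, 10.55 to 10.94 in spermatogonia and 9.51 to 10.46 in whole testis. These clones were of hsp90ab1, cct8 and hspa8, and the chaperones grp94 and hsp90bb named above were not on the list.

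The members that changed between stages are named here after their values were seen. The clone tcay0028.b.02 had stage means of 11.45 at stage I, 11.50 at stage IIa, 11.57 at stage IIb, 11.89 at stage IIIb, 12.11 at stage V and 10.57 at stage VIII. It was higher at stage V than at stage I by 0.67 (SE 0.14, limma adjusted p = 0.000359) and fell by 1.55 at stage VIII against stage V (SE 0.16, adjusted p = 1.96e-09). At stage VIII it had 10.56, 10.66 and 10.48, against 12.17, 12.18, 11.85 and 12.27 at stage V, without overlap. The other member of its source plate, tcay0028.a.10, also fell at stage VIII against stage V, by 0.83 (SE 0.21, limma adjusted p = 0.00173). It had 7.03, 7.48 and 7.59 at stage VIII, against 8.33, 8.02, 8.15 and 8.28 at stage V. For tcay0028.a.10 all the stage VIII values were under the array median, and the stage V values lay on both sides of it. Once lower signals were set to the array median, only 1 of the 3 members lower at stage VIII still passed.

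The clone tcbk0051.d.23 changed at 3 steps. It had 7.74, 8.21 and 7.94 at stage IIIb, against 7.08, 7.28, 7.29 and 7.09 at stage IIb, a difference of 0.78 (SE 0.23, limma adjusted p = 0.0294). It was higher at stage V than at stage I by 0.73 (SE 0.20, adjusted p = 0.00464) and fell by 0.67 at stage VIII against stage V (SE 0.23, adjusted p = 0.0179). These stage means were all under 8.17, and none of these 3 differences passed once lower signals were set to the array median. In tcay0026.n.24 the signal was higher at stage V, with 10.22, 10.34, 10.30 and 10.46, against 9.17, 9.39, 9.40, 9.34 and 9.37 at stage I, a difference of 1.00 (SE 0.19, adjusted p = 8.55e-05). The fourth member higher at stage V was 1rt98k14_c_f07, by 0.72 (SE 0.22, adjusted p = 0.011).

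The 5 members lower at stage V than at stage I included the set of 4 that varied together. Only 2 of the 5 still passed once lower signals were set to the array median. The differences were -1.22 for tcay0034.e.13 (SE 0.36, limma adjusted p = 0.00915), -1.08 for 1rt161n06_d_g03, -0.88 for 1rt38f23_b_c12 and -0.68 for 1rt70l17_b_f09, and the fifth was 1rt28h03_b_d02 with -0.60 (SE 0.17, adjusted p = 0.00669). A single member, tcay0038.f.19, passed as higher at stage VIII than at stage V in the fit over all arrays, with 12.23, 12.17 and 10.96 at stage VIII, against 10.04, 10.76, 10.45 and 10.81 at stage V (1.27, SE 0.46, adjusted p = 0.0291). This clone no longer passed without stage VIII replicate 1 or 2 or stage V replicate 1 or 3. It also did not pass once lower signals were set to the array median. In the same comparison tcbk0051.d.23 no longer passed without stage VIII replicate 1 or 2. The highest stage mean of the members was at stage VIII in 29 of the 64, against 27.3% of all clones, and at stage V in 15, against 20.8%.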

How the data were processed

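The deposited values were log2 signals. To correct for the amount of cDNA in a spot, the authors took the ratio of its sample and vector signals, scaled by the median vector signal of that spot over the arrays, before log2 transformation and quantile normalization. The value table had 9216 entries, of which 192 were empty, and 0 columns without a sample. For 190 clones a value was lacking on 1 or more of 3 arrays, and no member was among them. Array number limits the precision, and sequencing depth does not apply.

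Groups followed the labels. Over all 38 arrays, 1 coefficient per group was estimated by limma 3.58.1 (R 4.3.3), with variances moderated across clones (7.30 prior and 29 residual degrees of freedom), two-sided tests and Benjamini-Hochberg adjustment over the 9024 clones, at 0.05. The F-test used the 5 contrasts of the later stages with stage I. Correlations used values minus group means, except those of closest profiles. Tables and plots were made with pandas 2.3.3, numpy 2.4.6 and matplotlib 3.10.9 in Python 3.11.15.

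Members and lists were chosen with earlier results of these data known. Named clones were the members with a symbol, the 12 of largest gap, those next to each limit, the highest and lowest in spermatogonia, and those passing between late fractions; others are stated as picked after their values were seen. Symbols came from the array description, and 669 of 677 had their Entrez number in the trout RefSeq table. Alternatives were other limits of the rule, group medians, array quality weights, signals raised to the array median, filters on missing or dim clones, replicate number as a block, each array left out, and fits of whole testis or isolated cells alone.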

Additional observations from a re-analysis of the deposited data

Results flagged for a closer look

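Values reported above were searched for an array far from the others of its group, and 18 of 184 groups of values held one. Chance alone would give about 1 in 20 if these groups were independent. They are not, since they share arrays and include clones that varied together, so that nothing is read from this count. Stage I replicate 1 was the lowest of its group for rhcg (7.35), 1rt26m24_c_g12 (9.25), 1rt25m23_a_g12 (8.49), tcba0013.j.09 (8.68) and tcay0026.n.24 (9.17), and the highest for 1rt25n14_d_g07 (7.83). Spermatocytes replicate 6 was the lowest for tcay0034.e.13 (9.20), 1rt161n06_d_g03 (10.16), 1rt38f23_b_c12 (10.12) and 1rt70l17_b_f09 (9.57), clones that varied together.

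For il17r the lowest array was spermatocytes replicate 1 (8.30) and stage IIb replicate 1 (7.90) in these groups, and the highest was stage IIa replicate 2 (8.47) and stage V replicate 3 (8.09). Stage IIb replicate 1 was also far above the others for tcay0029.n.04 (8.09) and far below them for 1rt25n14_d_g07 (6.89). Stage IIa replicate 3 was the highest for 1rt28h03_b_d02 (8.67), and stage V replicate 1 the lowest for tcay0029.m.09 (6.61). Groups of 3 arrays, such as the spermatids, were not searched.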

How the results depend on the processing

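The number of members was 54 with group medians, 86 with a gap of 0.5 or more, 39 with a gap of 0.8 or more, 53 with signals raised to the array median, and between 52 (without spermatocytes replicate 2) and 74 (without spermatocytes replicate 6) with 1 array left out. Array quality weights gave 19 members for variation among the stages, 20 for stage V against stage I, 11 for stage VIII against stage V (5 higher and 6 lower, against 1 and 3 in the report) and 2 for stage IIIb against stage IIb. Signals raised to the array median gave 5, 5, 1 and 0 for the same comparisons. The whole-testis arrays alone gave 23, 16, 15 and 1, against 54.6%, 36.5%, 43.2% and 10.9% of all clones. For the other fits of this section the shares of all clones are not given here. Nothing is therefore read about the members from a rise or fall of their counts.

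With 1 array left out, members called ranged between 0 and 4 for spermatids against spermatocytes (4 without spermatids replicate 2), between 50 and 56 for spermatogonia against the array median, between 7 and 13 for variation among the stages (7 without stage V replicate 4), between 7 and 10 for stage V against stage I, between 0 and 1 for stage IIIb against stage IIb, and between 2 and 5 for stage VIII against stage V (2 without stage VIII replicate 1 or 2). The 0 in stage IIIb against stage IIb came without stage IIb replicate 1 or 4 or stage IIIb replicate 2 or 3.

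Groups share replicate numbers in the labels. Deviations of same-numbered arrays correlated with a mean r of -0.0016 over 127 pairs, in a range from -0.40 to 0.56. Of the 38 arrays, 9 correlated best with their own number. A mean over all groups cannot tell whether some groups were paired. With the replicate block, members called were 0 for spermatids against spermatocytes, 54 for spermatogonia against the array median, 9 for variation among the stages, 9 for stage V against stage I, 1 for stage IIIb against stage IIb and 4 for stage VIII against stage V.

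For 62 of the 64 members the annotation used here gave no gene name. The spermatid group has 3 arrays, and replicate 2 lay more than 1 log2 unit below both others for 30 of the 64 members. Over all clones, spermatids replicate 1 correlated alike with replicates 2 and 3 (r = 0.85 each), and replicates 2 and 3 correlated with r = 0.79. Means under the array median lie within what was taken as background.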
